A study of Homo sapiens with 17 samples.

Results

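Newly made RNA of 8 early transcription factor genes, 3 of the EGR family and 5 of the KLF family, was followed in SNU-761 cells, a human liver carcinoma line labelled as wild type. The genes were taken by Ensembl ID: EGR1 (ENSG00000120738), EGR2 (ENSG00000122877), EGR3 (ENSG00000179388), KLF2 (ENSG00000127528), KLF4 (ENSG00000136826), KLF5 (ENSG00000102554), KLF6 (ENSG00000067082) and KLF10 (ENSG00000155090). All 8 were found among the 19867 genes of the table. Of these, 6 passed the filter on low counts in both experiments, and EGR3 and KLF2 did not. Cells received VT107, a small molecule that blocks TEAD transcription factors, through which the Hippo pathway coactivators YAP and TAZ reach DNA, at 2.15 µM or 0.1 µM, against DMSO vehicle, with 2 libraries in each group. In a second experiment cells received intetumumab, here a biosimilar antibody against integrins that contain the αV chain, at 5 µg/ml or 1.5 µg/ml, against a human IgG1 kappa isotype control at 5 µg/ml, with 3 libraries in each group. All of these cells were labelled with thiouridine and collected at 4 h of treatment, and 1 unlabelled library accompanied each experiment. The series asks for the immediate effects of both agents on transcription. All libraries come from 1 cell line, and the length of the labelling pulse is not given in the sources used here.

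EGR proteins are zinc finger activators that bind GC-rich sites, and their genes are textbook immediate early genes. Growth factors, serum and adhesion switch them on through ERK signalling and the serum response factor SRF, which binds CArG boxes, and NAB corepressors shut them down again. KLF proteins carry related zinc fingers and bind GC boxes and CACCC sites. Several KLF genes answer quickly to growth factors, TGF-beta, injury or fluid shear, and in the liver KLF6 is known as an early gene of injury and as a tumour suppressor.

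The values are counts of reads that carry T>C conversions, the mark of alkylated thiouridine, and they report RNA made while the label was present. Levels are given as counts per 1e6 (CPM) after TMM scaling within each experiment. A CPM is a share of the new RNA counted, not an amount per cell. For VT107 the labelled libraries held 789214 to 1778876 T>C counts and for intetumumab 435343 to 950281, while the unlabelled ones held 10702 and 4553. Depth went with the group for VT107: of the labelled libraries, those at 2.15 µM were the deepest and those at 0.1 µM the shallowest. In the unlabelled libraries KLF6 had 2 counts in each, KLF10 had 2 in that of the VT107 experiment and 0 in the other one, and each of the other 6 genes had 0 counts in both. Cell identity was not checked here, because the table does not pair its IDs with gene names. Counts of 4 of the 6 tested members shared a common divisor over all 15 labelled libraries, namely 3 for EGR2 and 2 for KLF4, KLF5 and KLF10, as did 14.9% of the 9757 genes examined. Within the VT107 experiment the divisor was 6 for EGR2, and KLF6 had a divisor of 2 there. A count of these 5 genes may therefore stand for fewer independent reads than its size, which was not tested. In a bulk sample, fewer cells that transcribe a gene and less new RNA per cell cannot be told apart.

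Sequences are shown for the starts of 4 genes, EGR1, EGR2, KLF4 and KLF6. Each has 300 bases, from 250 bases before to 50 bases after the start in RefSeq, assembly GRCh38.p14. No windows of EGR3 and KLF10 were used, and those of KLF2 and KLF5 are not shown. Capitals mark matches, on either strand, to the CArG box of SRF and to the EGR motif GCGNGGGCG. The EGR2 window is the third of 3 listed for that gene, chosen because it holds a CArG box.
EGR1, chr5:138465229-138465528, plus strand: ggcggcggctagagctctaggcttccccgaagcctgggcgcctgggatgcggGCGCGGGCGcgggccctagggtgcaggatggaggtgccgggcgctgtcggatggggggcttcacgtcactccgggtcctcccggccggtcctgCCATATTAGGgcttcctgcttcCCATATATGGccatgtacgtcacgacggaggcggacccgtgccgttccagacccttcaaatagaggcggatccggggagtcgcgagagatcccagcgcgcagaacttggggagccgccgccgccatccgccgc
EGR2, chr10:62816317-62816616, minus strand: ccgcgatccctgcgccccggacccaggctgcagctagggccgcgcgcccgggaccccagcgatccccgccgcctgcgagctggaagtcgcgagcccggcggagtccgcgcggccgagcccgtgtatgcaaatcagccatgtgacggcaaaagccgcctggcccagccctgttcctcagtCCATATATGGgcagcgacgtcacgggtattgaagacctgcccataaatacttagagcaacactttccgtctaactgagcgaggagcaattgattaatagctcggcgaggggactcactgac
KLF4, chr9:107489720-107490019, minus strand: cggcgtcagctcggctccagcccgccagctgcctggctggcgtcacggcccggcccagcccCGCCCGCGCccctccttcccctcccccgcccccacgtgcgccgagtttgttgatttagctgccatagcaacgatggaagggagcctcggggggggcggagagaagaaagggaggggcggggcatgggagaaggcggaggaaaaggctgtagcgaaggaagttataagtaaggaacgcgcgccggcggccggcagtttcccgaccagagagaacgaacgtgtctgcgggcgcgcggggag
KLF6, chr10:3785160-3785459, minus strand: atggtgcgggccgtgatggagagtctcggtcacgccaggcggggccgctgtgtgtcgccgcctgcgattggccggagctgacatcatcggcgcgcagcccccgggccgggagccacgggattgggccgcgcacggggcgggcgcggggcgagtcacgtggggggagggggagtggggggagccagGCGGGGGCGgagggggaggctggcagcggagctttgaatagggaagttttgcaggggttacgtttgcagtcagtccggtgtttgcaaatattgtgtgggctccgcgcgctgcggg

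The EGR1 window held 2 CArG boxes, 105 to 96 and 83 to 74 bases before the start, a motif found in 1.29% of the 35116 RefSeq windows of this length. The EGR2 window held 1, 71 to 62 bases before the start. It was chosen for that box, so the share says nothing about it, and the other 2 EGR2 windows held 0. The KLF4 and KLF6 windows held none, and each held 1 match to GCGNGGGCG, which 9.43% of windows contain. The EGR1 window also held 1 such match, 198 to 190 bases before the start. GC boxes (GGGCGG on either strand, in 45% of windows) numbered 4 in the KLF4 window and 2 in the KLF6 window, some of them overlapping the EGR motif, and 0 in the EGR1 window and this EGR2 window. The first and second EGR2 windows, not shown, held 2 and 4 GC boxes, and the second also held 1 match to GCGNGGGCG. The TEAD motif GGAATG, in 14% of windows, had no match in any of the 4 windows printed. It had 2 matches in the first EGR2 window. The core TGACG of CREB and ATF sites, in 24.6% of windows, was found at 2 places in each of the EGR1, EGR2 and KLF4 windows and at none in the KLF6 window. These are letter matches, and no binding was measured here.

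**Figure D1:**
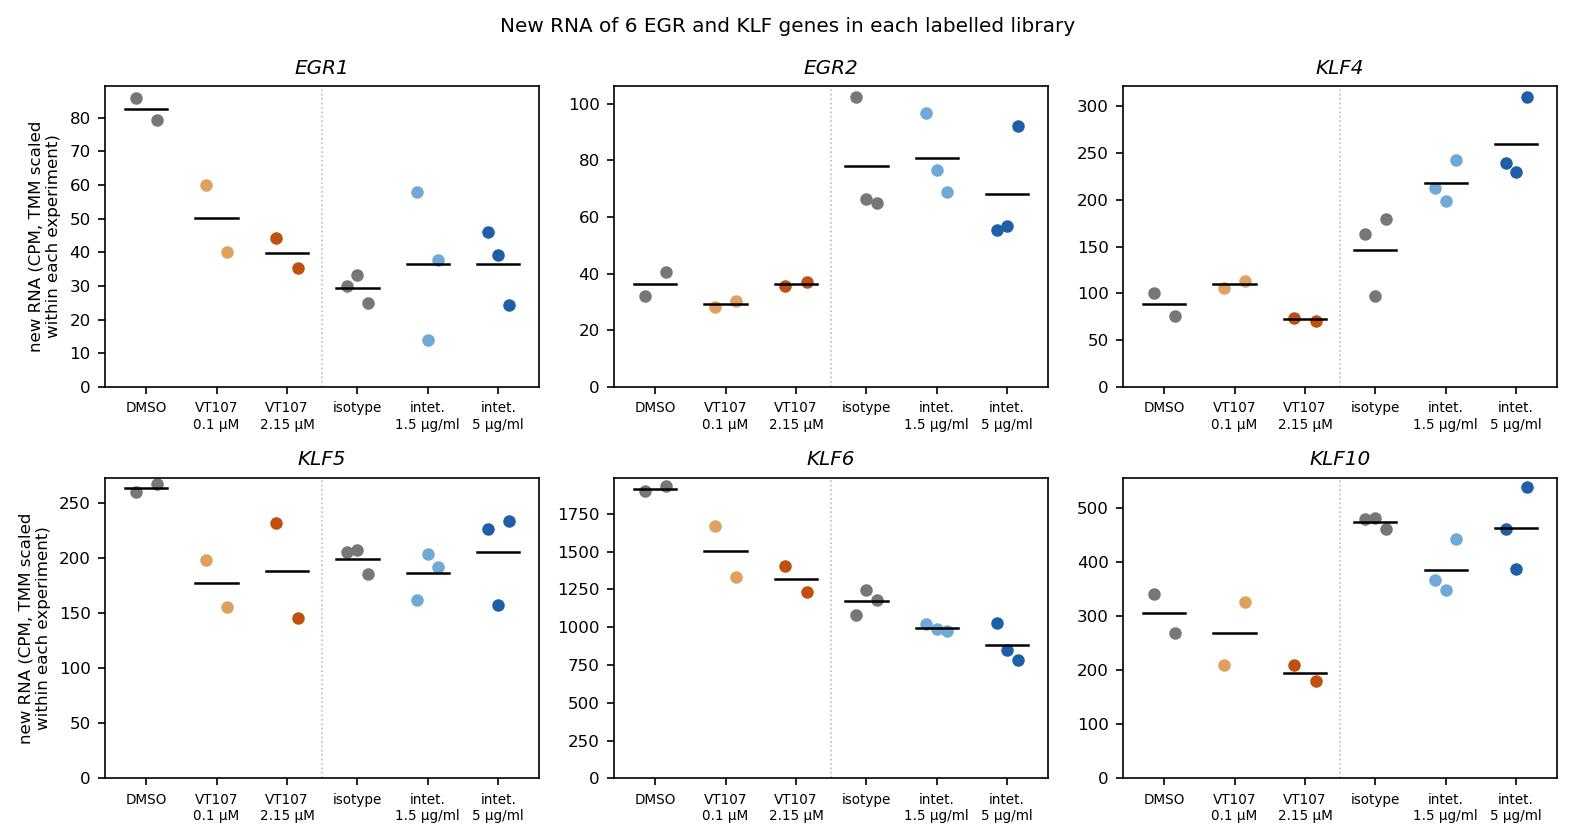
New RNA (CPM, linear axis from 0) of the 6 members tested, 1 panel per gene. Points are libraries, bars are group means, and the groups of the VT107 experiment and the intetumumab experiment stand on either side of the dotted line. Within the VT107 experiment EGR1 and KLF6 are highest in the DMSO libraries, and within the intetumumab experiment KLF4 has its highest mean at 5 µg/ml.

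After VT107 at 2.15 µM, EGR1, KLF4, KLF5, KLF6 and KLF10 all stood lower in both treated libraries than in both DMSO libraries, while EGR2 did not differ by more than its spread. None of the 6 tested members passed the test (edgeR's quasi-likelihood F-test, adjusted p under 0.05 over 10083 genes), where 0.109% of all genes did, all of them lower. At an unadjusted p under 0.05 there were 3 members, EGR1, KLF6 and KLF10, all lower, against 6.3% of all genes lower at that threshold. DESeq2 passed 1 member, KLF6 (log2 fold change −0.56, adjusted p = 0.0322), and it passed 7.87% of the 3048 genes to which it gave an adjusted p. EGR1 and EGR2 were not among those genes, and DESeq2 was not run on counts divided by their common divisor. With 2 libraries a group, separation is common: 20.6% of all genes also lay lower with no overlap, where 5 of the 6 members did. The median log2 fold change was −0.51 for the 6 members and 0.03 for all genes. All 6 values were below 0, as were 48.3% of all genes and 57.3% of the 2521 genes with the highest mean CPM. The members were chosen with earlier results of these data known, and they share the same DMSO libraries. The shares given here and in the comparisons below are therefore a description, not a test of the set. KLF5, KLF6 and KLF10 are among those 2521 genes, and EGR1, EGR2 and KLF4 are not. EGR2 was so near 0 that its sign turned with the scaling. When counts were scaled by library total instead of TMM, the median of all genes moved to 0.18 and EGR2 stood at 0.15, and the other 5 members stayed below 0.

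EGR1, the best known growth factor response gene of the family, was the member with the lowest fold change. It lies at chr5:138465479-138469303 (GRCh38.p14). Its level was 44.4 and 35.5 CPM in the libraries with 2.15 µM VT107, against 85.9 and 79.3 CPM in the DMSO libraries, from 82, 46, 80 and 82 raw counts. On the CPM scale both treated libraries were well below both DMSO libraries. The raw count of replicate 1 at 2.15 µM was no lower than those of DMSO. Its lower level rests on scaling to its depth, 1778876 counts against 1001568 and 1103024 in DMSO. The log2 fold change was −1.04 ± 0.36 (SE), with a 95% interval of −1.86 to −0.22 (edgeR, unadjusted p = 0.0187, adjusted p = 0.323). At 0.1 µM the level was 60.1 and 40.2 CPM, also below both DMSO libraries, with a log2 fold change of −0.72 and an interval of −1.55 to 0.11 (edgeR, adjusted p = 0.475), or −0.46 without replicate 2 of that dose. The group means in order of dose were 82.6 ± 4.67 CPM without VT107, 50.1 ± 14.1 CPM at 0.1 µM and 39.9 ± 6.29 CPM at 2.15 µM (SD, n = 2 each). The libraries of the 2 doses overlapped each other, and neither dose overlapped DMSO.

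EGR2, known for its part in hindbrain patterning and in myelination by Schwann cells, lies at chr10:62811996-62819167. It had 35.7 and 37.0 CPM at 2.15 µM VT107, against 32.2 and 40.6 CPM in DMSO, so that both treated libraries lay between the DMSO libraries. The interval of its log2 fold change, −0.86 to 0.85, still allows a change of the size measured for KLF6 in either direction (edgeR, adjusted p = 0.997). At 0.1 µM it had 28.3 and 30.1 CPM, just below both DMSO libraries, with a log2 fold change of −0.32 (interval −1.21 to 0.57, edgeR adjusted p = 0.805), or −0.15 without DMSO replicate 2. Every EGR2 count in the VT107 experiment was a multiple of 6. With counts divided by their common divisor within the experiment, an alternative added after seeing the data, EGR2 did not pass the filter there. EGR1 and EGR2, the EGR genes that passed the filter on undivided counts, gave different values against the same DMSO libraries. The difference between the 2 genes was not tested.

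KLF6 had the most counts among the members and the smallest error. It lies at chr10:3775996-3785209. Its level was 1405 and 1236 CPM at 2.15 µM VT107, against 1902 and 1933 CPM in DMSO, with 1602 to 2596 raw counts in each of these 4 libraries. At 0.1 µM it was 1670 and 1332 CPM. All 4 VT107 libraries were below both DMSO libraries, and the means ran from 1917 ± 22.1 CPM in DMSO over 1501 ± 239 CPM at 0.1 µM to 1320 ± 120 CPM at 2.15 µM (SD, n = 2 each). The log2 fold change was −0.54 ± 0.17 (SE) at 2.15 µM, with an interval of −0.92 to −0.16 (edgeR, unadjusted p = 0.0110, adjusted p = 0.287). At 0.1 µM it was −0.35, with an interval of −0.73 to 0.03 (edgeR, adjusted p = 0.443), and it moved to −0.53 without replicate 1 of that dose and to −0.20 without replicate 2. Every KLF6 count in the VT107 experiment was even. With counts divided by their common divisor within the experiment, an alternative added after seeing the data, the value at 2.15 µM was −0.53 (edgeR, unadjusted p = 0.0190, adjusted p = 0.329).

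KLF10, an early target of TGF-beta and a repressor, lies at chr8:102648784-102655725. It had 210 and 180 CPM at 2.15 µM VT107, against 341 and 269 CPM in DMSO. Both treated libraries were lower. The log2 fold change of KLF10 was −0.64 ± 0.28 (SE), interval −1.27 to −0.0080 (edgeR, unadjusted p = 0.0478, adjusted p = 0.426). Its unadjusted p was 0.0702 with edgeR when counts were divided by their common divisor within the experiment. With edgeR it was 0.116 after scaling by library total and 0.0686 with a replicate block. It stayed under 0.05 with DESeq2, RLE scaling, no filter, all labelled libraries in the fit or only the compared groups. The log2 fold change was −0.46 without DMSO replicate 1 and −0.80 without DMSO replicate 2. At 0.1 µM the libraries disagreed, at 210 and 327 CPM, and overlapped the DMSO libraries (log2 fold change −0.19, edgeR adjusted p = 0.847). That value turned to 0.09 without replicate 1 of the 0.1 µM group.

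KLF5, known for driving proliferation in epithelia such as the intestinal crypt, lies at chr13:73054976-73077538. It had 232 and 145 CPM at 2.15 µM VT107, against 260 and 267 CPM in DMSO. The treated libraries were both lower but far from each other, and the log2 fold change of −0.48 ± 0.28 (SE) rested on the lower one (edgeR, adjusted p = 0.586). It was −0.86 with only the second treated library and −0.18 with only the first. At 0.1 µM KLF5 had 198 and 156 CPM, again below both DMSO libraries, with a log2 fold change of −0.57 and an interval of −1.23 to 0.09 (edgeR, adjusted p = 0.473).

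KLF4, known for epithelial differentiation and as a factor that helps to reprogram cells to pluripotency, lies at chr9:107484852-107489769. It was the member whose values at the 2 VT107 doses lay on opposite sides of DMSO. It had 73.6 and 71.0 CPM at 2.15 µM and 106 and 113 CPM at 0.1 µM, against 101 and 75.4 CPM in DMSO. The higher dose was below both DMSO libraries, the nearest by less than 2 CPM, and the lower dose was above both. The log2 fold changes were −0.28 (interval −0.98 to 0.41, edgeR adjusted p = 0.790) and 0.31 (interval −0.38 to 1.01, edgeR adjusted p = 0.744). Both values depended on the DMSO libraries. Without DMSO replicate 1 they were −0.06 at 2.15 µM and 0.54 at 0.1 µM, and without DMSO replicate 2 they were −0.48 and 0.11 at the same doses.

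At 0.1 µM VT107, 0 of the 6 members passed the edgeR test, as did 0% of all genes, and 0 members had an unadjusted p under 0.05, where 12.1% of all genes did. DESeq2 also passed 0 members, against 4.09% of the genes to which it gave an adjusted p, which left out EGR2. EGR1, EGR2, KLF5 and KLF6 lay lower than DMSO with no overlap, as did 19.3% of all genes, and KLF4 lay higher with none, as did 20.4%. Values below 0 were found for 5 of 6 members, for 49.3% of all genes and for 55.9% of the 2521 genes with the highest mean CPM. EGR1, EGR2 and KLF4 are not among those 2521 genes. The median log2 fold change was −0.34 for the members and 0.01 for all genes, and that of all genes was 0.12 with scaling by library total. Both doses were set against the same DMSO libraries, so their values are not independent of each other. Between the doses themselves, 0 members passed the edgeR test, again with 0% of all genes, and 0 had an unadjusted p under 0.05 (5.3% of all genes). The doses lay apart for 2 members, KLF4 lower and EGR2 higher at 2.15 µM, where 39.1% of all genes did so in either direction. KLF4 had the widest gap, a log2 fold change of −0.60 at 2.15 µM against 0.1 µM (interval −1.29 to 0.09, edgeR adjusted p = 0.952). For KLF10 the value was −0.46 (interval −1.09 to 0.18) and for EGR1 −0.33 (interval −1.16 to 0.51). Both depended on single libraries, since KLF10 stood at −0.095 without replicate 2 of the 0.1 µM group and EGR1 at 0.0099 without its replicate 1.

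**Figure D2:**
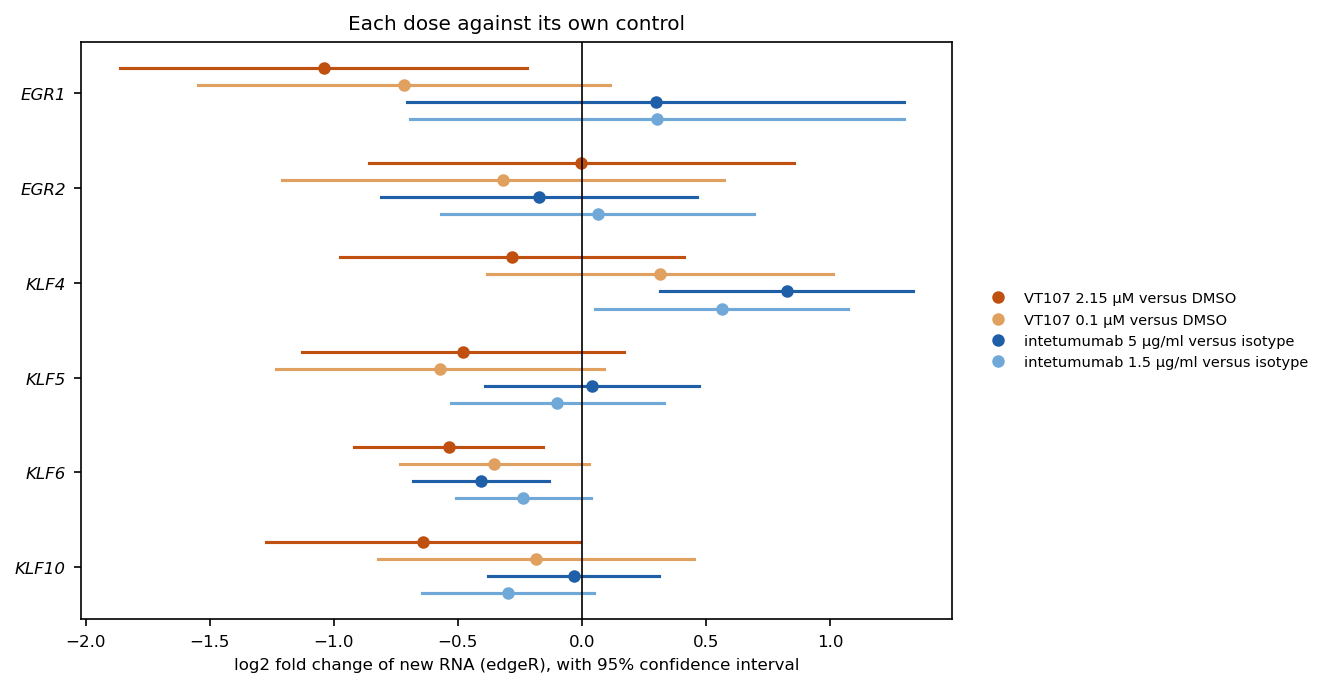
Log2 fold change of each tested member against its own control (points, edgeR) with its 95% interval (lines), for both doses of VT107 (orange) and of intetumumab (blue). At 2.15 µM VT107 the intervals of EGR1, KLF6 and KLF10 lie below the line at 0, at 5 µg/ml intetumumab that of KLF6 lies below it, and at both intetumumab doses that of KLF4 lies above it, none past the adjusted threshold.

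After intetumumab at 5 µg/ml, KLF4 was higher and KLF6 lower in all 3 treated libraries than in all 3 isotype libraries, and EGR1, EGR2, KLF5 and KLF10 overlapped their controls. None of the 6 members passed edgeR's test over 9024 genes, where 0.0887% of all genes did. At an unadjusted p under 0.05 there were 2 members, KLF4 higher (4.33% of all genes were) and KLF6 lower (4.9% were). DESeq2 passed both, KLF4 with a log2 fold change of 0.83 (adjusted p = 0.0363) and KLF6 with −0.41 (adjusted p = 0.0339). DESeq2 was not run on counts divided by their common divisor. It passed 3.39% of the 3034 genes to which it gave an adjusted p, and EGR1 and EGR2 were not among them. The same 2 members were those whose groups lay apart, where 7.64% of all genes lay higher and 8.26% lower with no overlap. The median log2 fold change of the members, 0.0029, was close to that of all genes, 0.0035.

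KLF4 had 240, 230 and 310 CPM in the libraries with 5 µg/ml intetumumab, against 164, 96.7 and 179 CPM in the isotype libraries. The lower dose, 1.5 µg/ml, gave 213, 199 and 242 CPM. All 6 treated libraries were above all isotype libraries, and isotype replicate 2 stood well below the other 2 of its group. The means in order of dose were 147 ± 43.9 CPM with isotype, 218 ± 22.0 CPM at 1.5 µg/ml and 260 ± 43.7 CPM at 5 µg/ml (SD, n = 3 each). The fold change was 1.77 at 5 µg/ml, or 0.82 ± 0.23 (SE) on the log2 scale with an interval of 0.31 to 1.33 (edgeR, unadjusted p = 0.00405, adjusted p = 0.293). At 1.5 µg/ml the log2 fold change was 0.56 (interval 0.05 to 1.07, edgeR unadjusted p = 0.0334, adjusted p = 0.899). Without isotype replicate 2 these values were 0.59 and 0.33. Every KLF4 count was even. When counts were divided by their common divisor, the value at 5 µg/ml was 0.81 (edgeR, adjusted p = 0.317).

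KLF6 had 1025, 849 and 781 CPM at 5 µg/ml intetumumab, against 1083, 1248 and 1182 CPM with isotype. With 1.5 µg/ml it had 1020, 989 and 973 CPM. The 6 treated libraries were below all isotype libraries, by little for the highest of them. The log2 fold change was −0.41 ± 0.13 (SE) at 5 µg/ml, with an interval of −0.68 to −0.13 (edgeR, unadjusted p = 0.00691, adjusted p = 0.328). At 1.5 µg/ml it was −0.24, with an interval of −0.51 to 0.04 (edgeR, adjusted p = 0.927). The treated libraries of KLF6 lay below their own controls in each of the 4 comparisons of a dose with its control, as did those of 1.07% of the 8847 genes tested in both experiments. The doses of 1 agent share their control libraries, so these comparisons are not independent, and in none of them did KLF6 pass edgeR's adjusted threshold.

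EGR1 had 46.1, 39.2 and 24.3 CPM at 5 µg/ml intetumumab, against 30.1, 33.1 and 24.8 CPM with isotype, from 19 to 29 raw counts per library. At 1.5 µg/ml its libraries spread between 13.9 and 57.8 CPM, the widest spread of EGR1 in any group. The log2 fold change was 0.30 at both doses, with an interval of −0.70 to 1.30 at 5 µg/ml (edgeR, adjusted p = 0.893), so a change of the size measured with 2.15 µM VT107 was outside the interval downwards and inside it upwards. The sign at 1.5 µg/ml depended on 1 library: the value was −0.26 without replicate 1 of that dose and 0.72 without replicate 2.

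EGR2 had 55.3, 56.8 and 92.2 CPM at 5 µg/ml, against 103, 66.3 and 64.8 CPM with isotype, and its groups overlapped (log2 fold change −0.17, interval −0.81 to 0.46, edgeR adjusted p = 0.904). KLF5 had 226, 157 and 233 CPM at 5 µg/ml, against 205, 207 and 186 CPM with isotype, also overlapping (log2 fold change 0.04, interval −0.39 to 0.47, edgeR adjusted p = 0.966). For these genes and for KLF10 the treated libraries varied among themselves by more than the group means differed. KLF10 had 461, 387 and 538 CPM at 5 µg/ml, against 478, 481 and 460 CPM with isotype (log2 fold change −0.03, interval −0.38 to 0.31, edgeR adjusted p = 0.962). KLF10 with 1.5 µg/ml had 366, 347 and 443 CPM, below all isotype libraries, with a log2 fold change of −0.30 (interval −0.65 to 0.05, edgeR adjusted p = 0.927).

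At 1.5 µg/ml intetumumab 0 members passed the edgeR test, with 0% of all genes, and 1, KLF4, had an unadjusted p under 0.05 (2.4% of all genes were higher at that threshold). DESeq2 also passed 0 members, against 3.6% of the genes to which it gave an adjusted p, which left out EGR1 and EGR2. Groups lay apart for KLF4, higher (5.62% of all genes), and for KLF6 and KLF10, lower (6.72%). Between 5 and 1.5 µg/ml, 0 members passed the edgeR test (0.0111% of all genes), 0 had an unadjusted p under 0.05 (5.64%), and 0 had groups that lay apart (10.8%). The log2 fold changes between these doses ran from −0.24 for EGR2 to 0.27 for KLF10, and that of KLF4 was 0.26 (interval −0.24 to 0.76).

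**Figure D3:**
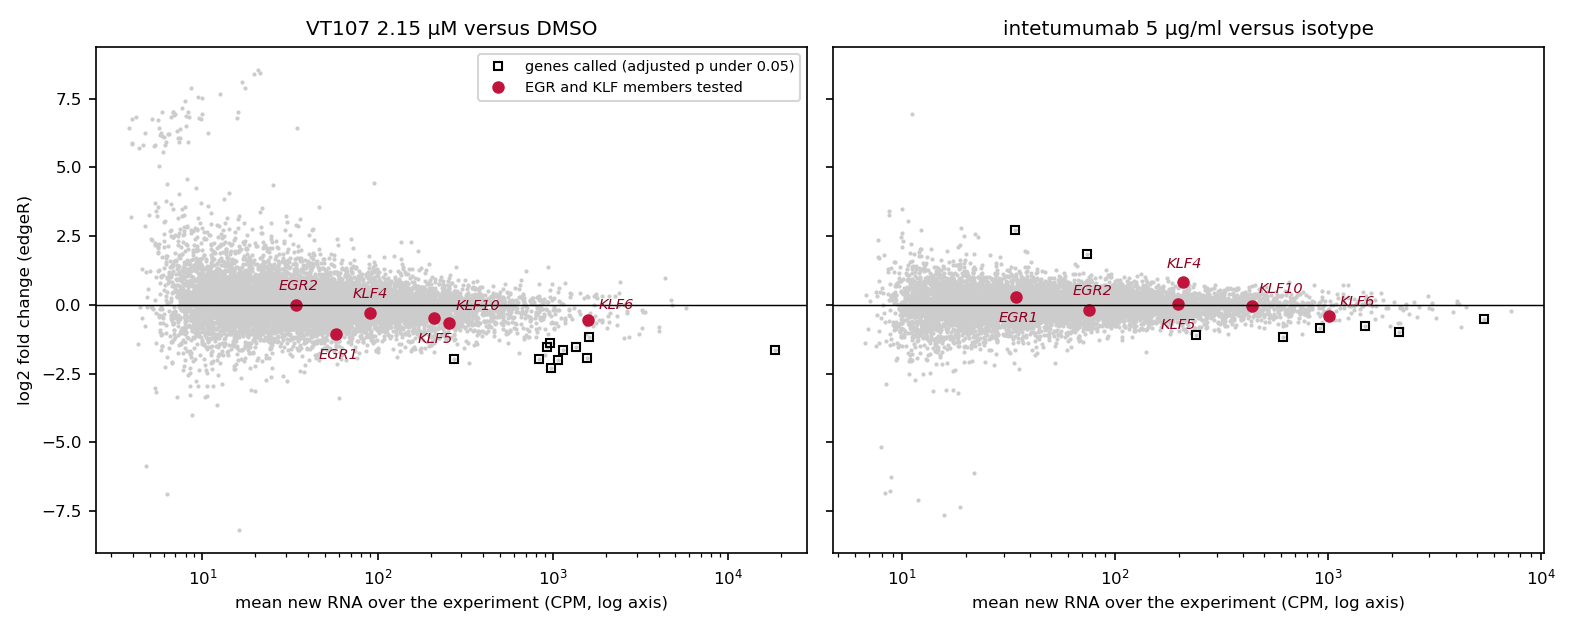
Log2 fold change against mean new RNA (CPM, log axis) for all genes tested (grey), genes past the adjusted threshold (open squares) and the 6 members (filled, named), for 2.15 µM VT107 against DMSO (left) and 5 µg/ml intetumumab against isotype (right). None of the members is among the 11 genes called on the left or the 8 called on the right.

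The effects of the agents were compared directly as the log2 fold change with 2.15 µM VT107 minus that with 5 µg/ml intetumumab, each against its own control. KLF4 had the most negative value relative to its error, −1.10 ± 0.37 (SE), with an interval of −1.90 to −0.31 (edgeR, unadjusted p = 0.00975, adjusted p = 0.365). For EGR1 the difference was −1.33 (interval −2.67 to 0.0059) and for KLF10 −0.61 (interval −1.24 to 0.03). The difference was −0.13 for KLF6 (interval −0.54 to 0.29), −0.51 for KLF5 (interval −1.22 to 0.19) and 0.18 for EGR2 (interval −0.80 to 1.15). None of the 6 passed edgeR's adjusted threshold (0.0782% of all genes did) or that of DESeq2 (1.5% of the genes to which it gave an adjusted p), and 1, KLF4, had an unadjusted p under 0.05 (9.06% of all genes). None of the members is thus shown to respond differently to the agents.

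EGR3, an EGR gene known from mice for muscle spindle development, and KLF2, known for the response of endothelium to blood flow, had too few counts to pass the filter. EGR3 lies at chr8:22687659-22693480. It had 14 counts over the 15 labelled libraries, with at most 3 in any of them: 1 and 1 at 2.15 µM VT107 and 3 and 0 at 0.1 µM, against 2 and 1 in DMSO. KLF2 (chr19:16324826-16328685) had 66 counts in all, with 8 and 5 at 2.15 µM VT107 and 2 and 1 at 0.1 µM, against 5 and 2 in DMSO. It had 3, 5 and 6 counts at 5 µg/ml intetumumab and 6, 8 and 2 at 1.5 µg/ml, against 3, 3 and 7 with isotype. KLF2 thus had at least 1 T>C count in every labelled library, and 0 in the unlabelled ones. In a single library, 1 or 2 such counts are too few to tell new RNA from background. At this depth no test of a difference between groups is given for either gene.

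**Figure D4:**
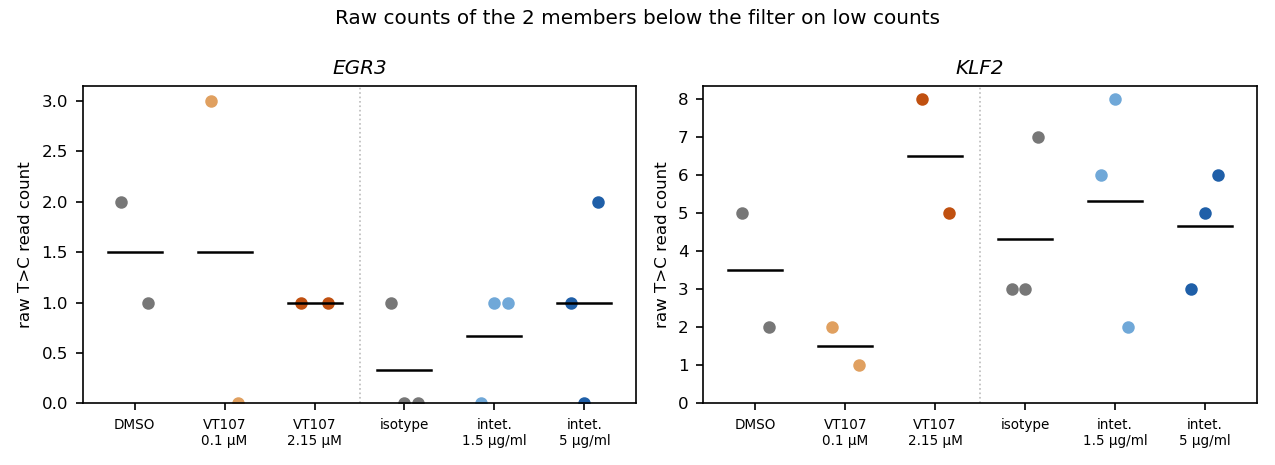
Raw T>C read counts of EGR3 (left) and KLF2 (right), which did not pass the filter on low counts, by group. Points are libraries and bars are group means; EGR3 reached at most 3 counts and KLF2 at most 8 counts in any library.

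The control groups were not alike. With all 15 labelled libraries scaled together, EGR1 stood at 83.9 ± 6.19 CPM in DMSO (n = 2) and 28.8 ± 3.94 CPM with isotype (n = 3, SD), and KLF6 at 1948 ± 11.2 CPM in DMSO and 1151 ± 82.5 CPM with isotype. EGR2 went the other way, with 36.9 ± 5.39 CPM in DMSO and 76.5 ± 20.7 CPM with isotype, as did KLF10, with 310 ± 57.5 CPM in DMSO and 465 ± 7.74 CPM with isotype. Vehicle, antibody and experiment cannot be told apart here, and these levels were not tested.

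Across the 15 labelled libraries, after each experiment was centred on its own mean, the members did not move as 1 block. These correlations of log2(CPM + 1) are given as a description, since the libraries share treatments and scaling. KLF5 and KLF6 had r = 0.515, KLF5 and KLF10 r = 0.443, and EGR1 and KLF6 r = 0.435. KLF4 ran opposite to KLF6 (r = −0.470), and EGR1 and EGR2 were near 0 (r = −0.073). Among the 7497 other genes compared, those most like KLF6 were ENSG00000142627 (r = 0.926) and ENSG00000100311 (r = 0.889). Those most like EGR2 were ENSG00000103855 (r = 0.882) and ENSG00000087077 (r = 0.792). The genes named are the highest of 7497 correlations over only 15 libraries, so their values are raised by selection. EGR2 had 24 to 75 raw counts per labelled library. Shared regulation was not tested. KLF6 and EGR2 were used because they had the highest mean CPM of their family over the 15 labelled libraries. In each group of the VT107 experiment, however, the mean of EGR1 was above that of EGR2.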

How the data were processed

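SLAM-seq was run on QuantSeq 3′ libraries, as the labels' protocols state, and build GRCh38 is named in the submitters' processing notes. The deposited values are raw counts of newly made RNA per gene. The authors obtained them with SLAM DUNK, as the series design text states. The sources used here give neither its version nor the annotation, the conversion minimum or the treatment of multiply mapped reads. All 17 columns of the table were used (0 left out), and groups were taken from sample titles.

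The labelled libraries of each experiment had a fit of their own, and the difference between agents in 1 fit of all 15 labelled libraries. Genes were filtered with filterByExpr (minimum count 10), scaled by TMM and tested two-sided in edgeR 4.0.16 (R 4.3.3; quasi-likelihood F-test). P-values were adjusted by Benjamini-Hochberg over all genes tested (10083 for VT107, 9024 for intetumumab, 10227 for the difference), with a threshold of 0.05. Intervals are 95%. DESeq2 1.42.0, other scalings, no filter, other sets of libraries in the fit, a replicate block, counts divided by their common divisor over all labelled libraries or, added after seeing the data, within each experiment, and leaving out each library were alternatives.

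All 8 members were named. For likeness, the 2 genes with the highest Pearson correlation to the EGR and the KLF gene with the highest mean CPM were named, among genes with a mean CPM of at least 20 (pseudocount 1). The members and lists were chosen with earlier results of these data known. Gene names of the members come from the rule that chose them, and 8 of 8 matched RefSeq (GRCh38.p14) by symbol. That table pairs 0 Ensembl IDs with symbols, so other pathway gene lists and cell type markers were not analysed here. Replicates differed by more than the counting noise of independent reads (chi-square per degree of freedom 3.66 to 8.52). Counts that share a common divisor also raise this value, and their part in it was not tested. The labels do not say whether the replicates are separate cultures, and the p-values therefore rest on a spread that may be technical.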

Additional observations from a re-analysis of the deposited data

How the results depend on the processing

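With DESeq2, 1 member passed the adjusted threshold for VT107 2.15 µM against DMSO and 2 members for intetumumab 5 µg/ml against isotype, where edgeR passed 0. The cause was not tested, and counts divided by their common divisor were fitted with edgeR only. Over all genes DESeq2 called 240 of 3048 with an adjusted p (7.87%) and edgeR 11 of 10083 (0.109%) in the first comparison, and 103 of 3034 (3.39%) and 8 of 9024 (0.0887%) in the second. Under every other alternative, each of the 7 comparisons gave 0 members, with a range of 0 to 0 when single libraries were left out. With the replicate number as a block the count was also 0. Deviations of libraries with the same number correlated between −0.016 and 0.006 in the VT107 experiment and between −0.030 and 0.044 in the intetumumab experiment. For libraries with different numbers the ranges were −0.006 to 0.016 and −0.067 to 0.081. In the VT107 experiment the ranges mirror each other, because each group has 2 libraries. A pairing by number was not seen in these values, and they cannot exclude one. Of 603 log2 fold changes of members under the alternatives, 577 kept their sign and 26, none of them called, changed it, in 12 of 42 results. Over the alternatives EGR1 at 2.15 µM VT107 ranged between −1.22 and −0.89, KLF6 at 2.15 µM VT107 between −0.63 and −0.38, KLF6 at 5 µg/ml intetumumab between −0.52 and −0.32, and KLF4 at 5 µg/ml between 0.59 and 0.99. Over all genes, 199 were called at 2.15 µM VT107 without a filter on low counts, 155 with all labelled libraries in 1 fit, 1 with the compared groups alone, 5 with the replicate block, 5 with total count scaling, and 1 to 26 when single libraries were left out. At 5 µg/ml intetumumab these counts were 13, 15, 1, 1, 8 and 0 to 3. At 0.1 µM VT107, where edgeR called 0 genes, DESeq2 called 177, the fit without a filter 171 and the fit of all labelled libraries 72. DESeq2 called 45 at 1.5 µg/ml intetumumab, against 0, and 104 for the difference between agents, against 8, where no filter gave 42 and the block 4. With counts divided within the experiment, which was added after seeing the data, EGR2 no longer passed the filter in the VT107 experiment and has no value there. Depth limits EGR3 and KLF2, which did not pass the filter and have no test given here, and EGR1 in the intetumumab experiment, with 12 to 43 counts per library.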
